A study of Mus musculus with 20 samples.

Results

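A set of 10 genes of the hepatic acute-phase response, measured in the livers of male CD-1 mice given phenobarbital or its vehicle, are described here: Saa1, Saa2, Saa3 and Saa4 (serum amyloid A proteins), Orm1, Orm2 and Orm3 (orosomucoids), Hp (haptoglobin), Hpx (hemopexin) and Lcn2 (lipocalin 2). They were chosen by name, as all probe sets whose platform gene symbol was one of these 10, which gave 12 of the 45037 probe sets and 10 of the 18193 genes with 1 symbol. All 10 passed the filter on low values, as did 16054 genes in all. Phenobarbital sodium, a sedative that activates the constitutive androstane receptor of hepatocytes, was given by mouth at 80 mg/kg/day in methylcellulose 15, and control mice of this outbred stock received only the methylcellulose. The 4 groups were phenobarbital for 28 days (PB 28d), vehicle for 28 days (CMC 28d), phenobarbital for 90 days (PB 90d) and vehicle for 90 days (CMC 90d), with 5 mice and 5 arrays each. The left lateral lobe was taken on the day after the final dose, and the sources used here give no age. The design asks whether the drug changed each transcript at either duration, and the spread between animals was compared as well.

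The acute-phase response is the change in plasma protein output that the liver makes during infection, injury or inflammation. Interleukin-6 and interleukin-1 reach hepatocytes, act through STAT3, NF-kB and C/EBP factors, and raise the transcription of serum amyloid A, orosomucoid, haptoglobin, hemopexin and lipocalin 2 genes. Saa1 and Saa2 are the inducible serum amyloid A proteins of liver and travel on high-density lipoprotein, Saa3 is made mainly outside hepatocytes, and Saa4 is the constitutive form. Orosomucoids bind drugs and lipids in plasma, haptoglobin binds free hemoglobin, hemopexin binds free heme, and lipocalin 2 binds bacterial siderophores and so withholds iron.

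Values below are log2 intensities of the authors' RMA table, and n = 5 mice per group throughout. A change is PB minus CMC on that scale, given with the standard error of the model. A gene was called at a limma adjusted p under 0.05 over all 16054 genes. The level of one probe set was not set against that of another. In whole liver, fewer cells of a type and less RNA per cell cannot be told apart.

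The arrays carried the liver label: Alb averaged 15.08 ± 0.14 in PB 28d and 15.15 ± 0.04 in CMC 28d livers, and 15.11 ± 0.05 in PB 90d and 15.17 ± 0.03 in CMC 90d livers (SD). Cyp2b10, the usual marker of exposure, was higher by 4.90 ± 0.62 at 28 days (limma adjusted p = 0.000572) and by 5.88 ± 0.62 at 90 days (2.79e-05). PB 28d replicate 5 and PB 90d replicate 3 lay at the low end of the first principal component, which held 55.6% of the variance. The 3 vehicle livers CMC 28d replicate 5 and CMC 90d replicates 3 and 4 stood apart from the other 17 in Saa2 and were picked out by it. Their Saa2 levels were 13.54 or more, the other livers had at most 9.90, and the second widest gap in Saa2 among the 20 livers was 1.24. None of the 10 phenobarbital livers lay above the gap. The sources used here give no batch or scan time, so whether a batch moves with these livers was not tested.

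The regions upstream of the genes are shown because several members were high in the same animals and because Saa1 with Saa2, and Orm2 with Orm3, are close copies. RefSeq promoters on GRCm38.p6 were found for 8 members, but not for Orm1 and Hp, and the 250 bases before each start were searched on both strands. The stretch of Saa2 lies at chr7:46751583-46751832 (plus strand), Saa1 at chr7:46743144-46743173 (minus strand), Orm3 at chr4:63355908-63356068 (plus strand), Orm2 at chr4:63362199-63362448 (plus strand) and Lcn2 at chr2:32387740-32387989 (minus strand). The Saa1 and Orm3 windows overlapped the annotated gene span by 201 and 89 bases, so for Saa1 only 30 bases round the match are printed and for Orm3 the 161 bases outside the span. The Saa3 window lay wholly inside its gene span. Capitals mark matches to TTGCNNAA, the letters searched for C/EBP.
Saa1: ctgtgctcccaTTGCACAAtgagggagaat
Saa2: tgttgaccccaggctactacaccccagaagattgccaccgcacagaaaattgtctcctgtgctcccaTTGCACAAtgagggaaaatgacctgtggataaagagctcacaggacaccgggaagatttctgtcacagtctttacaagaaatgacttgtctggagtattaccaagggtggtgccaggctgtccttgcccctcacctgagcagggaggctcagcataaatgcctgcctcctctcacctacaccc
Orm3: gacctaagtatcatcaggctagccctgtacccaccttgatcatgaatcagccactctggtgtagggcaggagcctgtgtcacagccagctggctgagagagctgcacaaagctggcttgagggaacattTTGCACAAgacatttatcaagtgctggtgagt
Orm2: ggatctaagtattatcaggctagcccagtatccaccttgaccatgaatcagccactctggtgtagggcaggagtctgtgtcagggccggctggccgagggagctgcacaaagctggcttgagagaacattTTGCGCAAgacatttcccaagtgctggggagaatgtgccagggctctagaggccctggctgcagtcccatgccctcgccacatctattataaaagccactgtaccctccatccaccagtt
Lcn2: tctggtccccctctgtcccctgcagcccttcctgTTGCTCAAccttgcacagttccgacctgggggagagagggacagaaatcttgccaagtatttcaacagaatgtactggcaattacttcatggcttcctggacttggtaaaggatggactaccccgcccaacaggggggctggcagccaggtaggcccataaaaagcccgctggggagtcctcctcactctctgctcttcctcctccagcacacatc

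A match to TTGCNNAA was found in 8 of 8 member windows, against 9.56% of the 32851 promoters of the table. The Saa1 and Saa2 windows were identical at 94.8% of aligned positions and those of Orm2 and Orm3 at 85.5%, so the 8 windows are not 8 separate sequences. In Saa1 and Saa2 the match read TTGCACAA and began 182 and 183 bases before the start. Orm3 carried TTGCACAA 121 bases before the start and Orm2 carried TTGCGCAA 120 bases before it, which reads the same on both strands. Lcn2 had TTGCTCAA at 216 bases, Hpx TTGCTGAA at 200 bases, Saa3 a match on the minus strand at 99 bases and Saa4 matches at 245 and 52 bases. The letters searched for STAT (TTCNNNGAA) were in 0 of the 8 windows, against 7.02% of all promoters. Longer patterns of NF-kB (17.6% of all promoters), the glucocorticoid receptor (0.387%) and HNF1 (0.00913%) were in 0 of the 8 too, which says only that these letters are not in these windows.

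Orm3, an orosomucoid gene next to Orm1 and Orm2 on chromosome 4, was the 1 member called under phenobarbital. At 28 days its level was 8.04, 8.25, 8.01, 7.44 and 8.54 in the PB 28d livers, against 6.68, 6.55, 6.64, 6.19 and 8.28 in the CMC 28d livers. The last vehicle liver, replicate 5, lay inside the phenobarbital range, and the other 4 lay below all 5 phenobarbital livers. The change was 1.19 ± 0.32 (95% interval 0.52 to 1.86, 2.28-fold) and was not called (limma unadjusted p = 0.00133, adjusted p = 0.715). Without CMC 28d replicate 5 it was 1.54 ± 0.25 and was called (limma adjusted p = 0.0137), the 1 call among 24 alternatives. At 28 days 0 of the 10 members were called, where 0.0498% of all genes were, and the groups overlapped for all 10, where 0.542% of all genes did not overlap.

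At 90 days Orm3 stood at 8.34, 8.04, 8.99, 9.11 and 8.50 in the PB 90d livers, against 5.65, 5.83, 6.37, 6.61 and 6.28 in the CMC 90d livers. The groups did not overlap, as for 1.07% of all genes. Orm3 rose by 2.45 ± 0.32 (95% interval 1.78 to 3.11, 5.45-fold, limma adjusted p = 0.000435), and it was the 1 member of 10 called, where 0.143% of all genes were called, 0.137% as higher. Among the vehicle livers, replicates 3 and 4 had the highest Orm3 levels, and both were below every phenobarbital liver. The call held under each of the 24 alternatives tried, with adjusted p between 5.2e-06 and 0.00276.

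Averaged over both durations, Orm3 rose by 1.82 ± 0.23 (3.53-fold, limma adjusted p = 0.000147), and again it was the 1 member of 10 called, against 0.212% of all genes, 0.193% as higher. The change at 90 days exceeded that at 28 days by 1.26 ± 0.45, which was not called (limma unadjusted p = 0.0115, adjusted p = 1.0). Between vehicle groups Orm3 was lower in CMC 90d than in CMC 28d livers by a difference of -0.72 ± 0.32 (unadjusted p = 0.0357, adjusted p = 0.636), and without CMC 28d replicate 5 that difference was -0.37. The limma tests called 0 of all 16054 genes for the difference between durations (221 at an unadjusted p under 0.05) and 0 for CMC 90d against CMC 28d (913).

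**Figure D1:**
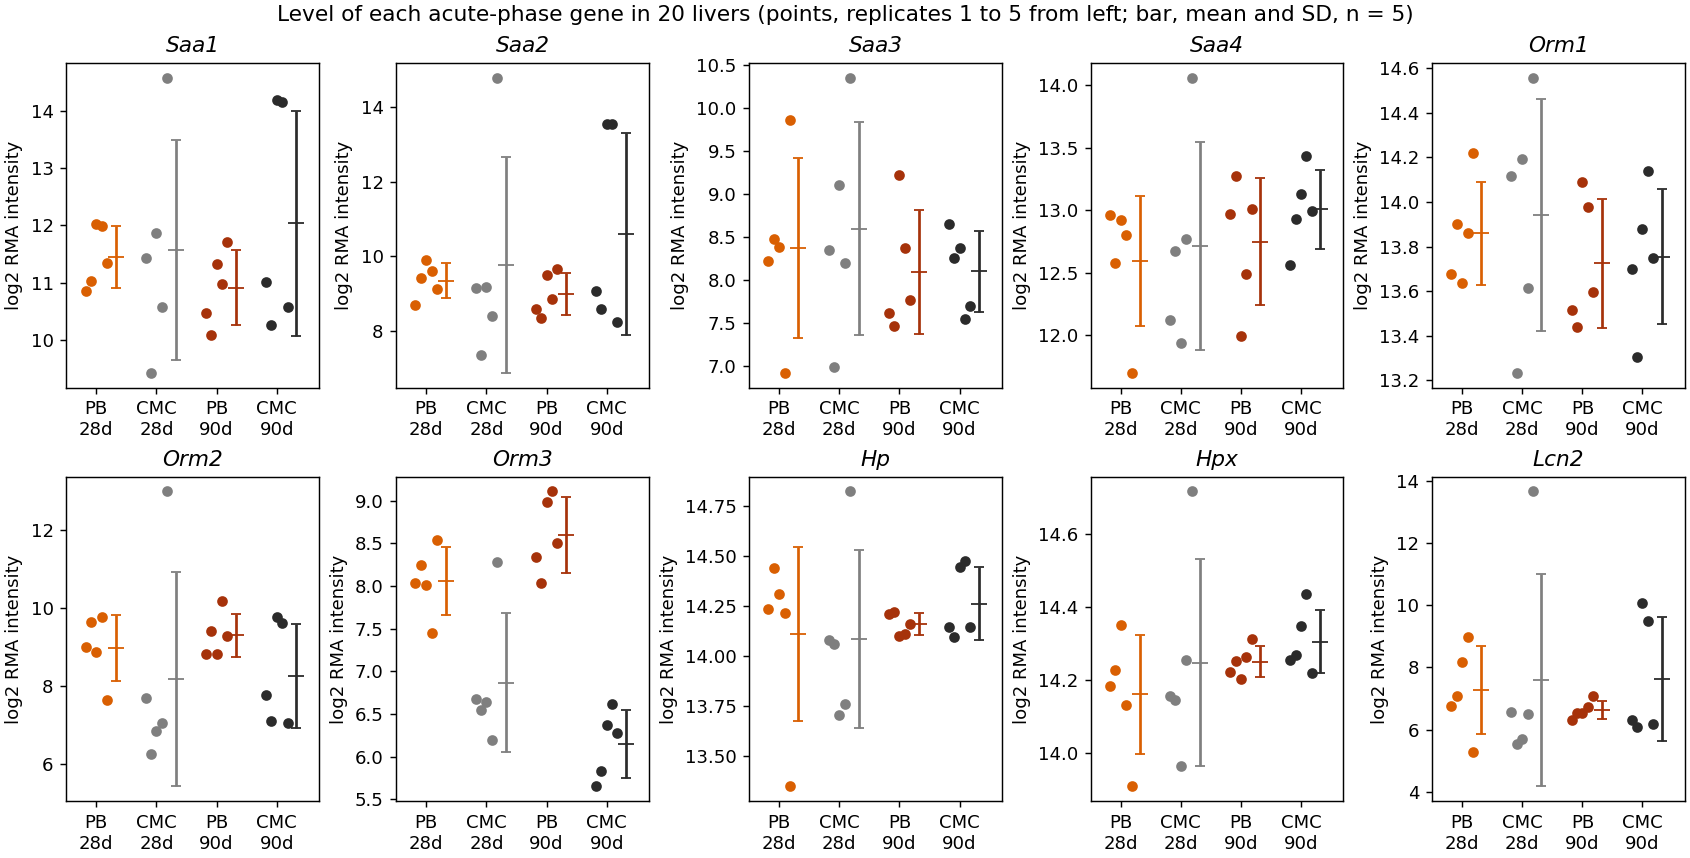
Log2 RMA intensity of each gene (vertical axis, own scale per gene) in the PB 28d, CMC 28d, PB 90d and CMC 90d livers (horizontal axis), with points for the 5 mice and a bar for mean and SD. Orm3 separates PB 90d from CMC 90d, and CMC 28d replicate 5 is the highest liver for every gene but Orm3.

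Orm2, the neighbour of Orm3, was the other orosomucoid with a positive mean change, but it was not called. Its level was 8.99, 9.64, 8.87, 9.77 and 7.64 in PB 28d livers, against 7.69, 6.27, 6.86, 7.05 and 12.98 in CMC 28d livers. Replicate 5 was the highest value of all 20 livers, and apart from it 4 of the 5 phenobarbital livers lay above the vehicle livers. At 90 days Orm2 had 8.82, 9.41, 8.83, 10.18 and 9.28 in PB 90d livers, against 7.78, 7.12, 9.78, 9.61 and 7.07 in CMC 90d livers. Vehicle replicates 3 and 4 lay within the phenobarbital range and the other 3 below it. The changes were 0.81 ± 0.91 at 28 days and 1.03 ± 0.91 at 90 days (limma adjusted p = 1.0 and 0.816), and 2.01 at 28 days without CMC 28d replicate 5 (adjusted p = 0.790). Averaged over both durations the change was 0.92 ± 0.64 (adjusted p = 0.72). With the Saa2 level of each liver as a covariate, a fit chosen after the 3 livers were seen, it was 1.63 ± 0.33 and called (adjusted p = 0.0437), and Orm3 gave 2.01 ± 0.18 (1.72e-06). Saa2 is itself a member and was very high only in vehicle livers. Adjusting for it lifts the estimate of a gene that follows it, so no result is read from this fit.

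Orm1, another orosomucoid gene of the cluster, was not called. It lay at 13.64 to 14.22 in PB 28d livers and 13.23 to 14.56 in CMC 28d livers, and at 13.44 to 14.09 in PB 90d and 13.31 to 14.14 in CMC 90d livers. The groups overlapped at both durations, and the changes were -0.08 ± 0.21 and -0.03 ± 0.21. Orm1 is close to the top of the scale, whose highest value per array was 15.28 to 15.34, as were Saa1 and Saa2 in CMC 28d replicate 5, and the part of this in its change was not tested.

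Saa1 and Saa2, the inducible serum amyloid A genes, were very high in the 3 vehicle livers and in no phenobarbital liver. Saa2 had 8.68, 9.42, 9.90, 9.59 and 9.11 in PB 28d livers, against 9.15, 7.33, 9.17, 8.40 and 14.78 in CMC 28d livers. At 90 days it had 8.58, 8.34, 9.50, 8.85 and 9.65 in PB 90d livers, against 9.06, 8.57, 13.54, 13.54 and 8.22 in CMC 90d livers. Apart from the 3 high livers the groups overlapped at both durations. Neither change was called, at -0.43 ± 1.14 (95% interval -2.81 to 1.96) and -1.60 ± 1.14 (-3.99 to 0.78, limma adjusted p = 0.816), and without CMC 28d replicate 5 the 28-day change was 0.83 ± 0.90. The 90-day change was -0.86 without either CMC 90d replicate 3 or replicate 4. Each of these fits kept the other high liver, and none left out both. The remaining CMC 90d livers, at 9.06, 8.57 and 8.22, lay within or below the PB 90d range, and the negative sign rested on the high livers.

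Saa1 followed the same animals. It had 10.86, 11.04, 12.02, 11.99 and 11.35 in PB 28d livers, against 11.43, 9.43, 11.87, 10.58 and 14.57 in CMC 28d livers. It had 10.47, 10.08, 11.34, 10.98 and 11.71 in PB 90d livers, against 11.02, 10.26, 14.18, 14.14 and 10.58 in CMC 90d livers. The 3 highest values again came from the 3 vehicle livers, and the changes of -0.13 ± 0.81 and -1.12 ± 0.81 were not called. The first was 0.62 without CMC 28d replicate 5, and the second -0.59 without CMC 90d replicate 3 and -0.60 without replicate 4. The remaining CMC 90d livers, at 11.02, 10.26 and 10.58, lay inside the PB 90d range. Here too the negative sign at 90 days rested on the high livers, and no fit left out both. A second Saa1 probe set, of the kind that can bind several transcripts, carried an accession that RefSeq gives to Saa2, and it gave -0.10 ± 0.87 and -1.22 ± 0.87. The Saa2 probe set is of a kind open to cross-binding too, so the signals of the pair are not fully separate.

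Saa3, made mainly by macrophages and other cells outside the hepatocyte, did not follow the pair in the 90-day livers. It ranged over 6.92 to 9.85 in PB 28d and 6.99 to 10.35 in CMC 28d livers, and over 7.46 to 9.22 in PB 90d and 7.54 to 8.65 in CMC 90d livers. CMC 28d replicate 5 had the highest Saa3 level, while CMC 90d replicates 3 and 4 had 8.37 and 7.54, inside the range of the phenobarbital livers. The changes were -0.23 ± 0.53 and -0.01 ± 0.53. Saa4, the constitutive form, lay at 11.70 to 12.96 in PB 28d and 11.94 to 14.06 in CMC 28d livers, and at 11.99 to 13.28 in PB 90d and 12.56 to 13.43 in CMC 90d livers. Its changes were -0.12 ± 0.33 and -0.26 ± 0.33, and its second probe set gave -0.20 ± 0.49 and -0.47 ± 0.49.

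Lcn2, the siderophore-binding lipocalin, had the widest range of the members. Its level was 6.77, 7.09, 8.18, 8.97 and 5.27 in PB 28d livers, against 6.58, 5.54, 5.70, 6.49 and 13.65 in CMC 28d livers. At 90 days it was 6.30, 6.53, 6.54, 6.74 and 7.08 in PB 90d livers, against 6.31, 6.08, 10.07, 9.48 and 6.16 in CMC 90d livers. The 3 vehicle livers high in Saa2 were also the 3 highest for Lcn2, with PB 28d replicates 4 and 3 next. Neither change was called, at -0.33 ± 1.19 and -0.98 ± 1.19 (limma adjusted p = 1.0 and 0.831), and the 28-day change was 1.18 ± 0.77 without CMC 28d replicate 5. The 90-day change was -0.37 without CMC 90d replicate 3 and -0.52 without replicate 4. No fit left out both, and the negative sign rested on them. The remaining CMC 90d livers, at 6.31, 6.08 and 6.16, lay at the low end of the PB 90d range or below it.

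Haptoglobin and hemopexin, the scavengers of hemoglobin and heme, had small mean changes. Hp lay at 13.35 to 14.44 in PB 28d and 13.71 to 14.82 in CMC 28d livers, and at 14.10 to 14.22 in PB 90d and 14.10 to 14.48 in CMC 90d livers. Hpx lay at 13.91 to 14.35 in PB 28d and 13.96 to 14.72 in CMC 28d livers, and at 14.20 to 14.31 in PB 90d and 14.22 to 14.44 in CMC 90d livers. The highest vehicle value was CMC 28d replicate 5 for both at 28 days, and CMC 90d replicate 4 for both at 90 days. Their changes ran from -0.10 to 0.02, with standard errors of 0.19 for Hp and 0.11 for Hpx, and both genes sit near the top of the scale.

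**Figure D2:**
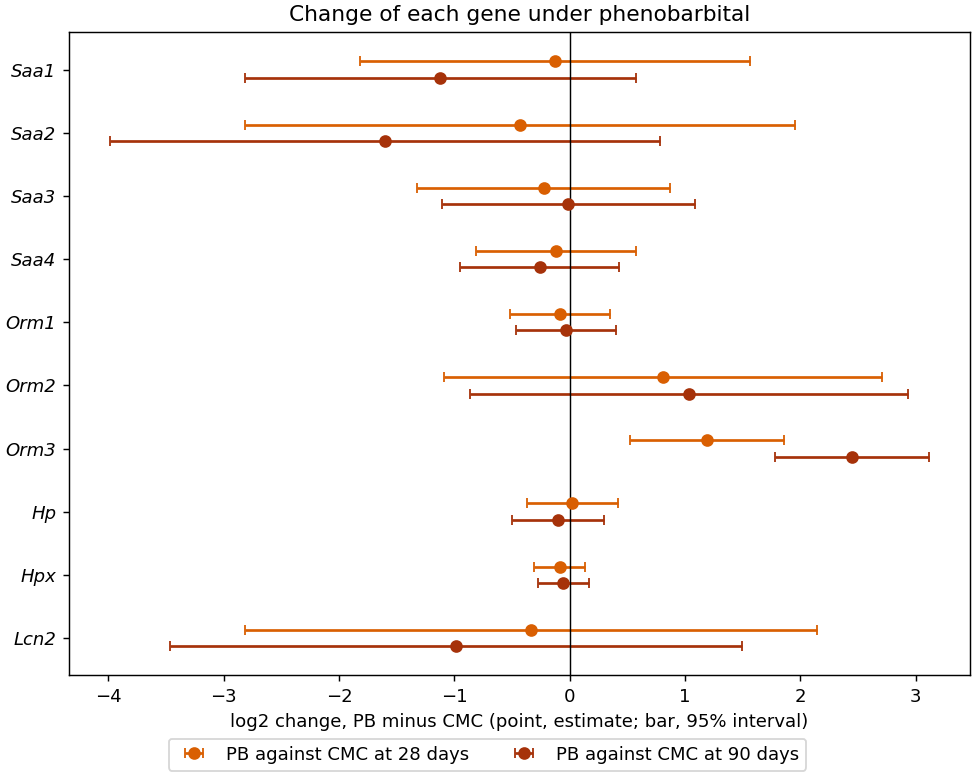
Change of each gene, PB minus CMC in log2 units (horizontal axis), at 28 and 90 days, with bars for the 95% interval of the model. The intervals of Orm3 lie above 0 at both durations, and those of Saa1, Saa2, Orm2 and Lcn2 are wide and include 0.

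The median change over the 10 members was -0.10 at 28 days and -0.08 at 90 days, beside -0.00162 and 0.03 over all genes tested. Of the members 3 had positive changes at 28 days and 2 at 90 days, where 49.6% and 56.2% of all genes did. At an unadjusted p under 0.05 limma gave 1 member, Orm3, at each duration, against 2.86% and 4.53% of all genes.

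The SD between animals was lower in the phenobarbital groups for Saa1, Saa2, Orm2 and Lcn2, a difference that did not pass the test of spread. The SD of Saa2 was 0.465 in PB 28d against 2.90 in CMC 28d livers, and 0.572 in PB 90d against 2.71 in CMC 90d livers. The SD of Saa1 was 0.534 in PB 28d against 1.92 in CMC 28d livers, and 0.652 in PB 90d against 1.96 in CMC 90d livers. Lcn2 had 1.41 in PB 28d against 3.42 in CMC 28d livers and 0.291 in PB 90d against 1.98 in CMC 90d livers. For Orm2 the SD was 0.846 in PB 28d against 2.74 in CMC 28d livers, and 0.555 in PB 90d against 1.33 in CMC 90d livers. In each of these vehicle groups the livers named above held the highest values of the 4 genes. At 28 days the order rested on 1 liver for Lcn2 and Orm2. Without CMC 28d replicate 5, chosen after seeing the data, the SD of Lcn2 was 1.41 in PB 28d against 0.532 in CMC 28d livers, and that of Orm2 0.846 in PB 28d against 0.586 in CMC 28d livers. Saa2 then had 0.465 in PB 28d against 0.864 in CMC 28d livers, and Saa1 0.534 in PB 28d against 1.07 in CMC 28d livers. Apart from replicates 3 and 4, the CMC 90d livers spanned 8.22 to 9.06 for Saa2 and 10.26 to 11.02 for Saa1. They spanned 6.08 to 6.31 for Lcn2 and 7.07 to 7.78 for Orm2. The PB 90d livers spanned more for each, at 8.34 to 9.65, 10.08 to 11.71, 6.30 to 7.08 and 8.82 to 10.18. The 90-day order of these 4 genes was therefore not seen apart from those livers, and no SD was computed without both. Orm1, Hp and Hpx had a lower SD under phenobarbital at both durations too. The ratios of PB over CMC at 28 and 90 days were 0.447 and 0.960 for Orm1, 0.976 and 0.299 for Hp, and 0.576 and 0.486 for Hpx. Without CMC 28d replicate 5 the 28-day order turned for Hp and Hpx, but not for Orm1. Orm3 had 0.401 in PB 28d against 0.811 in CMC 28d livers, and 0.448 in PB 90d against 0.397 in CMC 90d livers.

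**Figure D3:**
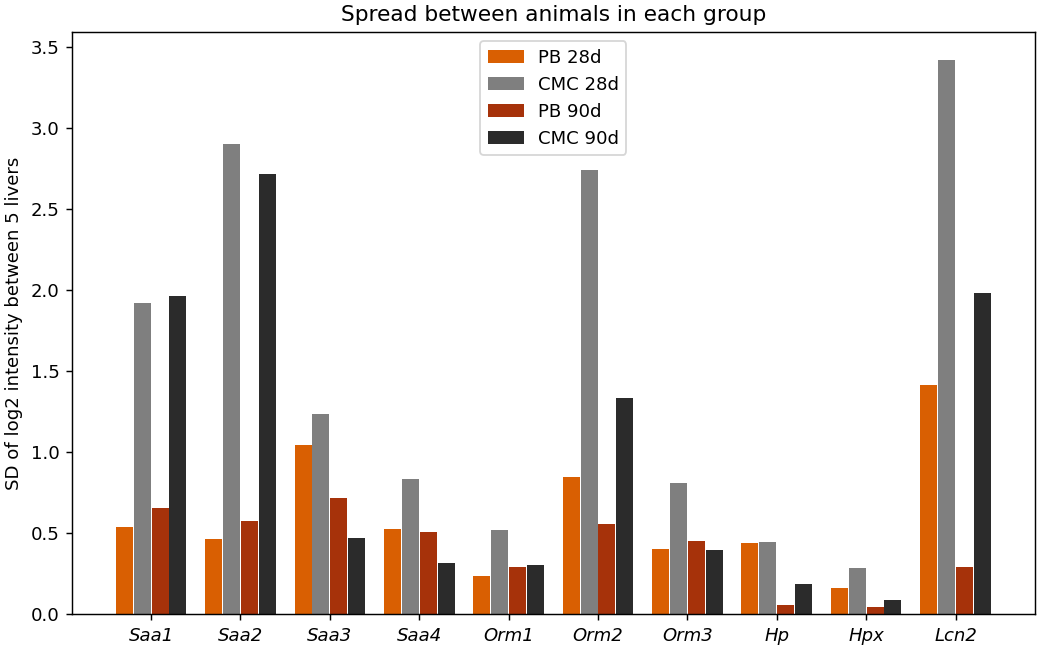
SD of log2 intensity between the 5 livers of each group (vertical axis) for each gene (horizontal axis). The bars of CMC 28d and CMC 90d stand above those of the phenobarbital groups for Saa1, Saa2, Orm1, Orm2 and Lcn2, for Orm1 by little at 90 days. Saa3, Saa4 and Orm3 have a larger SD in PB 90d than in CMC 90d livers.

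The test of spread, limma on absolute deviations from the group median, called 0 of 16054 genes at 28 days, at 90 days and averaged (109, 296 and 184 genes at an unadjusted p under 0.05). The averaged difference of Saa2 was -1.63 ± 0.75 (unadjusted p = 0.0432, adjusted p = 0.976) and that of Saa1 was -1.04 ± 0.47 (0.039, adjusted p = 0.976). In a permutation test over all 63504 splits within durations (two-sided) each gave p = 0.061. The deviations were taken once from the observed group medians and not again for each split, so this p is approximate. The averaged difference of Lcn2 was -1.14, and -0.40 without CMC 28d replicate 5, and that of Orm2 was -0.88, and -0.27 without it. For Saa2 it was -1.09 without that liver. Averaged deviations were smaller under phenobarbital in 10 of 10 members, against 27.9% of all genes, in 10 of 10 at 28 days (44.3%) and in 6 of 10 at 90 days (26.3%). The members share animals, so these counts are not 10 separate observations. Without CMC 28d replicate 5, PB 28d livers had the larger SD for Saa3, Saa4, Orm2, Orm3, Hp, Hpx and Lcn2. Hp, for example, then had 0.435 in PB 28d against 0.197 in CMC 28d livers. Saa1, Saa2 and Orm1 kept the smaller SD in PB 28d livers. At 90 days Saa3, Saa4, Orm1 and Orm3 had larger deviations under phenobarbital, by 0.16, 0.17, 0.02 and 0.05. Their averaged differences were negative only through the 28-day livers. Without CMC 28d replicate 5 the averaged difference of Orm3 was 0.089. The 28-day and averaged counts are therefore not read as a narrowing of the whole set.

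The 3 vehicle livers were chosen by Saa2, so its own values there are a description. They also held the 3 highest of 20 values for 3 of the other 9 members, Saa1, Hp and Lcn2, of which the Saa1 signal is not fully separate from that of Saa2, and for 7 of 24 other positive acute-phase genes, where they did so for 0.529% of all genes. The 7 were Cfb, Fgl1, Itih3, Itih4, Lrg1, Pzp and Serpina3n, chosen after their values were seen. Fgl1, a fibrinogen-like protein secreted by hepatocytes, reached 14.26 in CMC 28d replicate 5, and Lrg1, a leucine-rich plasma glycoprotein, reached 13.97. CMC 28d replicate 5 alone held the highest of 20 values for 8 of the 9 members other than Saa2, against 2.72% of all genes. At the other end, PB 28d replicate 5 held the lowest value for Saa4, Hp, Hpx and Lcn2, 4 of 10 members against 25.9% of all genes.

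**Figure D4:**
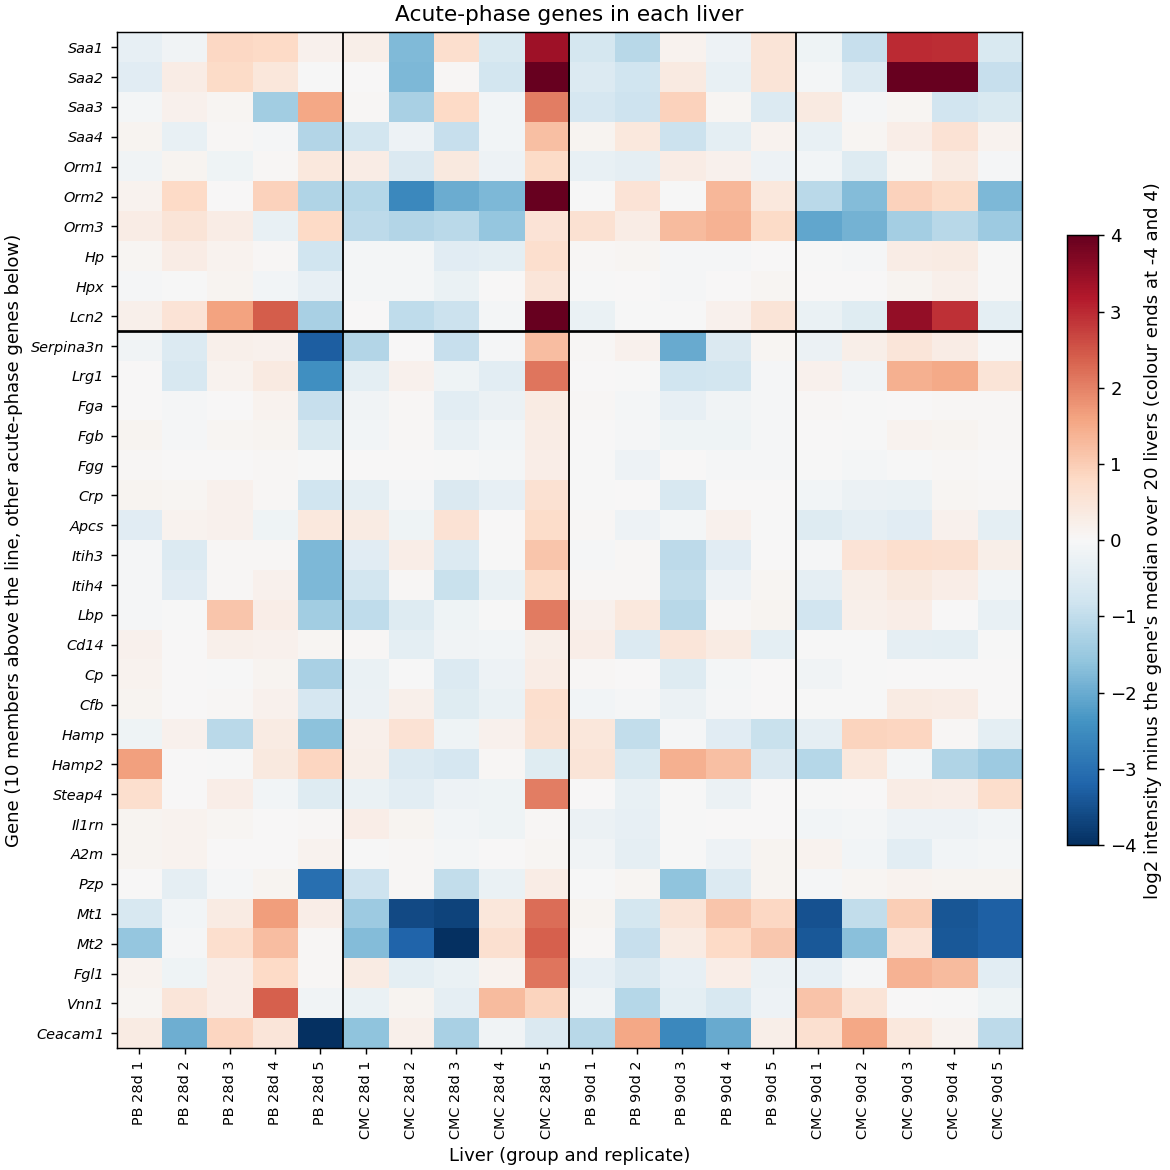
Log2 intensity of each gene minus its median over 20 livers (colour, from -4 to 4), for the 10 members above the line and 24 other positive acute-phase genes below it, with one column per liver. CMC 28d replicate 5 and CMC 90d replicates 3 and 4 are red for Saa1, Saa2, Lcn2 and Fgl1, and PB 28d replicate 5 is blue for Serpina3n and Pzp.

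The members were also compared with one another across livers, on values with the group mean removed. Because the 3 vehicle livers lie apart in Saa2, no result is read from tests over all 20 livers, whose p-values are only counted in the last section. The 45 pairs were permuted within groups among the other 17 livers, a set chosen after the values were seen. It was cut by Saa2, itself a member. The p-values here and for the first component therefore describe these livers, and no result is read from them either. Saa1 and Saa2 varied together (Pearson r = 0.934, Spearman rho = 0.909, permutation p = 3e-05, adjusted p = 0.00135 over 45 pairs), and r was 0.897 without the 2 farthest livers. As said above, the signals of this pair are not fully separate, so a high r is built in to some extent. The part of cross-binding in it was not tested. Saa3 and Saa4 ran in opposite directions (r = -0.824, rho = -0.789, permutation p = 0.00046, adjusted p = 0.0069), as did Saa4 and Orm1 (r = -0.835, rho = -0.828, permutation p = 0.00019, adjusted p = 0.00427). Saa3 and Orm1 ran together (r = 0.702, rho = 0.723, permutation p = 0.00417, adjusted p = 0.0469). Without the 2 farthest livers these 3 values of r were -0.828, -0.819 and 0.794. Over all 20 livers they were -0.170, -0.079 and 0.678. With PB 28d replicate 5 and PB 90d replicate 3 left out of the 20 they were 0.227, 0.201 and 0.598. The negative r was thus weak over 20 livers and turned sign without those 2, and both sets hold the 3 vehicle livers. Saa3, Saa4 and Orm1 each varied with the first component among the 17 livers, as given below. Its part in these 3 pairs was not tested. Within the 17 livers the median r over the 45 pairs was 0.123.

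Saa4 also followed the first principal component among these 17 livers (r = 0.964, rho = 0.877, permutation p = 6e-05, adjusted p = 0.000233 over 10 members). Saa3 ran the other way (r = -0.863, rho = -0.887, permutation p = 1e-05, the smallest that 100000 permutations can give, adjusted p = 0.0001), as did Orm1 (r = -0.821, rho = -0.860, permutation p = 7e-05, adjusted p = 0.000233). Orm3 ran the other way too (r = -0.737, rho = -0.713, permutation p = 0.00556, adjusted p = 0.0139). Without the 2 farthest livers r was 0.922 for Saa4, -0.753 for Saa3, -0.850 for Orm1 and -0.667 for Orm3. The other 6 members did not pass the test. The component was computed from all 16054 genes, these members among them, and held 55.6% of the variance. The share of all genes that follow it was not computed, so these values are not read as particular to the members. Orm3 was also called at 90 days with the first component as a covariate.

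**Figure D5:**
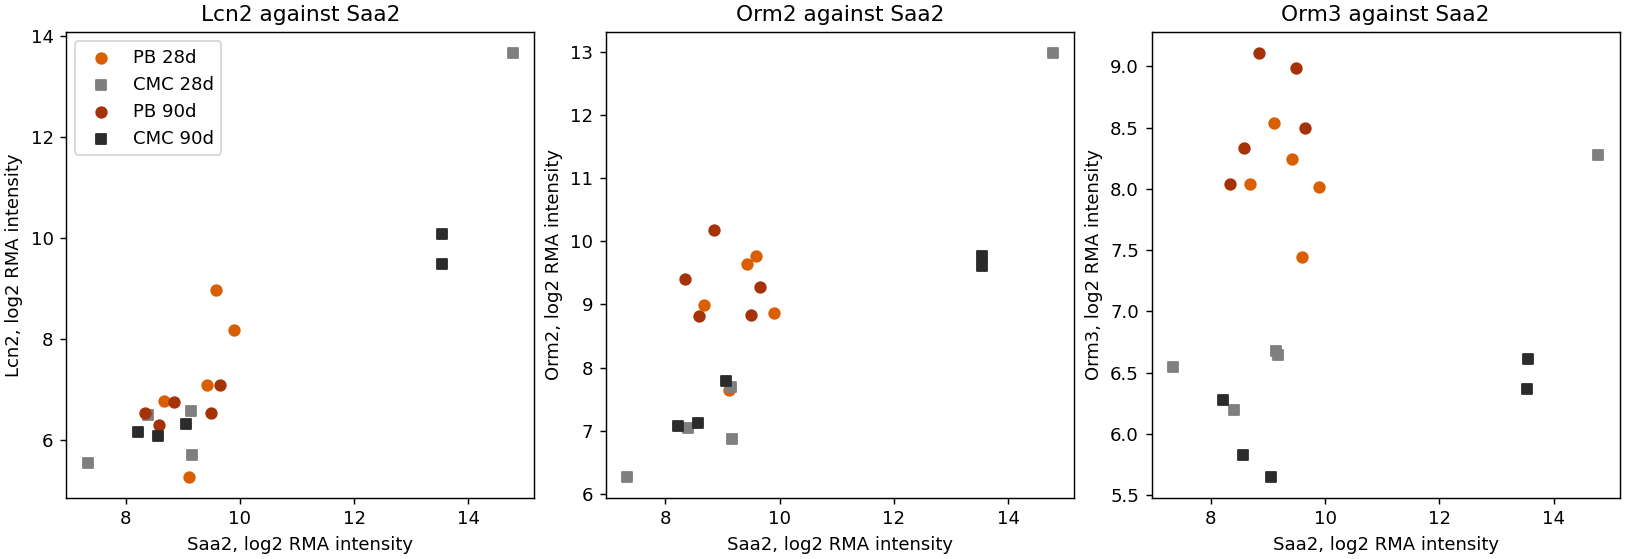
Lcn2, Orm2 and Orm3 (vertical axes) against Saa2 (horizontal axis), all in log2 RMA intensity, with circles for phenobarbital and squares for vehicle livers. The 3 vehicle livers high in Saa2 are the highest for Lcn2, and the phenobarbital livers lie above the vehicle livers of like Saa2 level for Orm3.

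The genes whose group-centred values were most like those of Orm3 over 20 livers, as a description that the 3 vehicle livers enter, were Serpina10, the protein Z-dependent protease inhibitor (r = 0.889), Dnajc12, a co-chaperone (0.854), Prtn3 (0.827), Tifa (0.777) and Crybb3 (0.774). Over the other 17 livers these gave 0.716, 0.725, 0.449, 0.731 and 0.643 in that order. For Lcn2 they were Fgl1 (0.924), Slc3a1 (0.874), Prtn3 (0.873), Tmem176a (0.866) and Pdia5 (0.852), and over the 17 livers 0.604, 0.602, -0.228, 0.542 and 0.435. For Saa4 they were Slc39a14, a zinc and iron importer (0.938), Itih3 (0.936), Mvp (0.918), Mpnd (0.914) and Otud3 (0.911), and over the 17 livers 0.946, 0.938, 0.872, 0.957 and 0.932. These are descriptions over livers that share animals and arrays. The Saa4 values changed little between the sets of livers, and that of Lcn2 with Prtn3 turned sign. The 17 livers are part of the 20 in which these genes were picked, so they give no second observation. Saa4 also followed the first component among the 17 livers (r = 0.964), and the part of the component in these values was not tested.

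Other acute-phase genes gave 1 call, Apoa4, in the averaged comparison. Of 24 tested positive acute-phase genes 0 were called at either duration, with a median of -0.07 at 28 days and -0.14 at 90 days. Hamp, the gene of the iron-regulating hormone hepcidin, gave -0.76 ± 0.36 at 28 days (limma unadjusted p = 0.0494, adjusted p = 1.0) and -0.60 ± 0.36 at 90 days. Hamp2, its close copy, gave 0.86 ± 0.43 and 1.08 ± 0.43, the other way, and Mt2, a metallothionein that binds zinc, gave 2.51 ± 1.02 at 90 days (limma adjusted p = 0.816). Of 15 tested negative acute-phase genes, which fall in inflammation, 0 were called at either duration. Cyp7a1, the rate-limiting enzyme of bile acid synthesis, gave -0.94 ± 0.49 at 28 days and -1.07 ± 0.49 at 90 days (limma adjusted p = 1.0 and 0.816). Averaged over both durations Apoa4, an apolipoprotein of triglyceride-rich particles, rose by 0.83 ± 0.17 (limma adjusted p = 0.0452) as the 1 gene of the 15 called, but it was not called in 24 of 33 alternatives (adjusted p 0.0183 to 0.134). The call was lost without any single array other than CMC 28d replicates 1 and 3, CMC 90d replicate 3 and PB 90d replicate 1.

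Upstream and partner genes gave 0 calls at either duration. Of 30 tested genes of cytokines, receptors and signalling, Socs3, the feedback inhibitor of interleukin-6 signalling, gave -1.55 ± 0.74 at 28 days (limma adjusted p = 1.0). It lay at 3.64 to 6.89 in PB 28d and 6.02 to 10.31 in CMC 28d livers, so the groups overlapped. Osmr, the oncostatin M receptor, gave 0.39 ± 0.17 at 90 days (limma adjusted p = 0.816), and Il22ra1, a subunit of the interleukin-22 receptor, gave -0.39 ± 0.20. None of 11 tested iron and heme genes, nor of 9 lipoprotein and receptor partners of Saa and Lcn2, was called. In the iron and heme list Hamp and Hamp2, given above, had the smallest p, followed by Hfe at 90 days (0.39 ± 0.22), and among the partners Lrp2, Mmp9 and Tlr4 gave 0.20 to 0.33.

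Markers of other cell types were read beside these results. Of 10 tested neutrophil genes 1 was called at 90 days, S100a8, at 6.28 ± 1.13 (limma adjusted p = 0.0163). It lay at 5.42 to 13.21 in PB 90d and 4.99 to 5.64 in CMC 90d livers, and 4 of the 5 phenobarbital livers were above all the vehicle livers. At 28 days it lay at 7.80 to 12.79 in PB 28d and 5.64 to 7.10 in CMC 28d livers and was not called (5.06 ± 1.13, limma adjusted p = 0.248). Averaged over both durations it rose by 5.67 ± 0.80 (limma adjusted p = 0.00067), the 1 neutrophil gene called. S100a9, its partner, gave -0.15 ± 0.32 at 28 days and lay at 5.08 to 6.26 in PB 90d and 5.12 to 5.97 in CMC 90d livers. The granule genes Mpo, Elane, Camp, Ltf and Ngp stayed between 4.10 and 5.74 in all livers, against a 25th percentile of 3.96 to 4.26. The mean deviation over the list was 0.46 to 0.80 in PB 28d and -0.14 to 0.12 in CMC 28d livers, and -0.16 to 0.71 in PB 90d and -0.41 to -0.14 in CMC 90d livers. With S100a8 left out, an alternative chosen after seeing the data, it was 0.0144 to 0.40 in PB 28d and -0.061 to 0.21 in CMC 28d livers, and -0.28 to 0.11 in PB 90d and -0.25 to -0.0204 in CMC 90d livers, so the ranges overlapped at both durations. Csf3r, the receptor of granulocyte colony-stimulating factor, gave 0.32 ± 0.12 at 28 days (limma adjusted p = 1.0). Over 13 tested Kupffer cell and macrophage genes, with 0 called, the mean deviation was 0.01 to 0.76 in PB 28d and -0.41 to 0.66 in CMC 28d livers, and -0.86 to 0.25 in PB 90d and -0.91 to 0.41 in CMC 90d livers. Over 8 hepatocyte genes, with 0 called, it was -1.13 to -0.04 in PB 28d and -0.27 to 0.18 in CMC 28d livers, and -0.71 to 0.19 in PB 90d and 0.05 to 0.11 in CMC 90d livers. The low ends came from PB 28d replicate 5 and PB 90d replicate 3, the arrays at the low end of the first component. The other PB 28d livers lay at -0.12 to -0.04, inside the vehicle range. PB 90d replicates 1 and 4, at -0.05 and -0.34, lay below the CMC 90d livers. The macrophage genes of smallest p were Marco (-0.43 at 28 days and -0.56 at 90 days), Adgre1 (0.41 at 28 days) and Cd5l (-0.59 at 90 days). The hepatocyte genes of smallest p were Tat (-0.88 at 28 days), Apob (-0.86 at 28 days and -0.94 at 90 days) and Ahsg (-0.19 at 90 days). Lymphocyte, adipocyte, cholangiocyte, endothelial and stellate cell markers gave 0 calls at either duration, and the genes of smallest p ran from -0.67 for Lrat at 28 days to 0.96 for Fabp4 at 90 days. The part of these cells in the change of Orm3 was not tested.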

How the data were processed

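RNA of 20 livers was hybridised to Affymetrix 3' expression arrays after biotin labelling, per the labels' protocols. The authors deposited log2 intensities after RMA, as the submitters' processing notes state, and the sources used here name no version. RMA corrects background, quantile-normalizes the arrays and combines probes, and it flattens differences near background and near the top of the scale. No further transformation was made. Precision is limited by the number of arrays. A series column was mapped to its group and replicate by its title, and 0 columns were unused.

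Probe sets took the gene symbols of the platform annotation: 34945 had 1 symbol, 932 several (0 of them a member) and 9160 none. The brightest probe set on average stood for each gene. A gene was kept when above its array's 25th percentile on at least 5 of 20 arrays. Means were fitted in limma 3.58.1 (R 4.3.3) with 1 mean per group, an intensity trend and 16 residual degrees of freedom, and p-values were adjusted by Benjamini and Hochberg over 16054 genes, two-sided. Spread was fitted likewise, without trend, to absolute deviations from the group median. Permutations, promoter searches and figures used Python 3.11.15, SciPy 1.17.1, Biopython 1.88 and matplotlib 3.10.9. Both models were also run on simulated data, whose outcome is not given here. The absence of calls in the test of spread is not read as equal spread. The members, lists, tests and alternatives were chosen with earlier results of these data known.

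Named genes were the members with every probe set, from each gene list up to 3 called genes or else the 2 with the smallest p, and the 5 genes most like Orm3, Lcn2 and Saa4. The alternatives were filters, the choice of probe sets, the variance prior, the groups fitted, array weights, scaling, a replicate block, the first component, and each array left out. Whether replicate numbers pair mice was checked by correlating deviations from group means, which gave -0.60 to 0.36, so no pairing was used. No 2 arrays of a group were duplicates (highest correlation 0.993).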

Additional observations from a re-analysis of the deposited data

Results flagged for a closer look

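In each group of 5 the highest or lowest liver was compared with the others, and 5 of the 40 member groups held a liver far from the rest (a gap above 0.71 of the group's range), against 8.52% of the groups over all genes. Chance flags about 1 in 20 groups, and the groups share animals. The other genes given here were chosen after their values were seen, so no share is read from them. CMC 28d replicate 5 was far above the other vehicle livers for Saa2 at 14.78, Orm2 at 12.98, Orm3 at 8.28 and Lcn2 at 13.65, 4 of those 5. It was far above them for Fgl1 at 14.26 and Lrg1 at 13.97 too. PB 28d replicate 5 was far below the other phenobarbital livers for Hp at 13.35, Serpina3n at 7.56, Socs3 at 3.64 and S100a8 at 7.80. At 90 days PB 90d replicate 3 was far below its group for Itih4 at 12.74, and PB 90d replicate 5 for S100a8 at 5.42.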

How the results depend on the processing

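Over the alternatives run, the 32 results on members and Apoa4 were recomputed 836 times: 760 kept direction and side of the threshold, 50 turned direction, none of them with an adjusted p under 0.05, 24 lost the call (all of Apoa4, with changes of 0.72 to 0.97) and 2 passed it (Orm3 at 28 days without CMC 28d replicate 5, and Orm2 averaged with the Saa2 covariate). Orm3 at 90 days and averaged was called in every one. Genes called at 28 days numbered 8, and 4 with the 2 groups alone, 17 with array weights and 17 with the first component as covariate (6 to 10 with single arrays out). At 90 days 23 were called (17 to 23), averaged 34 (26 to 35, and 51 with the first component). With the replicate block the counts were 8, 22 and 29, and Apoa4 (0.0937) was the 1 gene of these results whose call it changed (pairing was not borne out by the deviations). Averaged spread gave 2 genes with the group mean as centre against 0. Pairs of members correlated at a permutation adjusted p under 0.05 numbered 24 over 20 livers and 4 within the 17. The first component passed for Saa4, Orm1, Hp and Hpx over 20 livers (Orm3 r = -0.272) and for Saa3, Saa4, Orm1 and Orm3 within the 17. The counts over 20 livers include the 3 livers picked out by Saa2, so no result is read from them. The set of 17 livers and the Saa2 covariate were chosen after seeing the data, so no result is read from their p-values.

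At 28 days changes turned with array weights for Saa1 (0.14) and Lcn2 (0.12), with the Saa2 covariate for Saa1 (0.17) and Lcn2 (0.0719), with the first component for Saa4 (0.0197), and without the 2 arrays at its end for Saa4 (0.11) and Lcn2 (0.16). At 90 days they turned on centring at the 75th percentile for Saa3 (0.0814), Orm1 (0.0634) and Hpx (0.0389), after cyclic loess for Saa3 (0.0376), and with the first component for Saa4 (0.0763), Hp (0.0438) and Hpx (0.0105). The Saa2 covariate turned Saa3 (0.29), Orm1 (0.16), Hp (0.0593), Hpx (0.0396) and Lcn2 (0.54) at 90 days and Saa1 averaged (0.0734). The averaged spread of Orm3 turned on centring (0.0401). With single arrays left out, the 28-day changes ran from -0.66 to 0.62 for Saa1, -1.04 to 0.83 for Saa2, -0.63 to 0.21 for Saa3, -0.31 to 0.22 for Saa4, -0.26 to 0.0702 for Orm1, -0.0722 to 0.21 for Hp, -0.16 to 0.0299 for Hpx and -0.85 to 1.18 for Lcn2. At 90 days they ran from -1.57 to -0.59 for Saa1, -2.19 to -0.86 for Saa2, -1.37 to -0.37 for Lcn2, -0.29 to 0.14 for Saa3 and -0.14 to 0.0662 for Orm1, and the averaged spread of Orm3 from -0.15 to 0.0895. The causes were not tested.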
